A study of Gallus gallus with 6 samples.

Results

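Glutathione metabolism was followed in 47 chicken genes, chosen as all rows annotated with the KEGG term for that pathway, without IDH2 and PRDX6, of 18239 genes measured. The data were RNA-seq libraries of skeletal muscle from broiler chickens of 180 days, for which the labels name no treatment or genotype, 3 from the soleus, a leg muscle, and 3 from the pectoralis major, the breast muscle. The series set these muscles against each other because their fibre types differ widely; muscle of both body sides was taken at slaughter, and the labels name no sex and do not say which libraries came from one bird. The values were FPKM, fragments per kilobase of gene and scaled to the library's total. Levels, ranks and shares of different genes are comparable only as far as the gene lengths used fit the transcripts. The length recovered for GGT2, for example, was 23432 bases, and the fit of the lengths was not tested. Library totals recovered from the steps of the values ran from 38534335 to 39079981 fragments for soleus and from 36309597 to 37123092 for pectoralis major.

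Glutathione is a small thiol peptide of glutamate, cysteine and glycine. It is built in 2 steps by glutamate-cysteine ligase and glutathione synthetase, is oxidised when glutathione peroxidases reduce peroxides, and is reduced again by glutathione reductase with NADPH. Glutathione transferases couple it to reactive compounds, and gamma-glutamyl enzymes and peptidases break it down. The KEGG map also holds polyamine synthesis, since trypanosomes join spermidine to glutathione, and ribonucleotide reductase, which takes electrons from glutaredoxin or thioredoxin. In muscle the pathway is known for handling the peroxides that respiration and contraction release. The roles given below are known mainly from mammals, and no protein or promoter sequence was used here.

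The labels were checked with fibre markers. The summed FPKM of the slow fibre genes MYL3, MYH7B, TNNI1 and MYL2 was 7856 to 11001 in soleus and 0.560 to 2.82 in pectoralis major, and that of the fast genes MYH1E, TNNT3 and TNNC2 was 13560 to 17307 in soleus and 29490 to 33216 in pectoralis major. The fast genes differed unequally. MYH1E had 2.53 to 7.73 FPKM in soleus and 4750 to 4897 FPKM in pectoralis major, and TNNC2 had 7710 to 9792 FPKM in soleus and 9890 to 12171 FPKM in pectoralis major. Mitochondrially encoded genes held 31.4 to 38.04% of all FPKM in soleus and 13.1 to 15.8% in pectoralis major. The median log2 difference of all genes tested, soleus minus pectoralis major, was 0.26 as deposited, -0.05 after median-ratio scaling and 0.45 once mitochondrially encoded genes were removed from the totals. Differences below, always soleus minus pectoralis major, are from log2(FPKM + 1) of the deposited values, so a value near 0.26 lies at the middle of all genes, and the pseudocount of 1 understates the change of low genes. No label ties the libraries to separate birds, and the p-values therefore cover just the spread among these 6 samples, part of which may be technical.

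Of the 47 genes, 38 reached an FPKM of 1 in at least 3 of the 6 libraries and were tested with limma across all genes, with Benjamini-Hochberg adjustment. Of these, 15 rose in soleus and 4 fell, where 40.0% of all 9616 genes tested rose and 17.4% fell. The share that rose is thus close to the background, and the median difference of the tested genes was 0.45, beside 0.26 for all genes. After median-ratio scaling 10 rose and 9 fell, where 20.6% of all genes rose and 30.1% fell. The direction by role was uneven: 3 of 3 synthesis genes rose, as did 2 of 3 recycling genes, 3 of 5 peroxidases and 5 of 14 transferases, while 3 of the 4 genes that fell belong to the polyamine and nucleotide branches. By role after median-ratio scaling, 2 of 3 synthesis genes rose, 1 recycling gene rose and 1 fell, 1 peroxidase rose, 4 transferases rose and 2 fell, and all 5 polyamine and nucleotide genes fell. The 3 libraries of soleus did not overlap with those of pectoralis major for 20 of the 38 genes, where 64.9% of all genes did not overlap. For 6 genes (GPX7, GPX8, GSTA3, GSTO2, MGST2 and CHAC1) fewer than 3 pectoralis major libraries reached the minimum, so they entered the test through soleus. GPX7, GPX8 and GSTA3 are among the 15 that rose, so the filter favoured their direction.

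**Figure D1:**
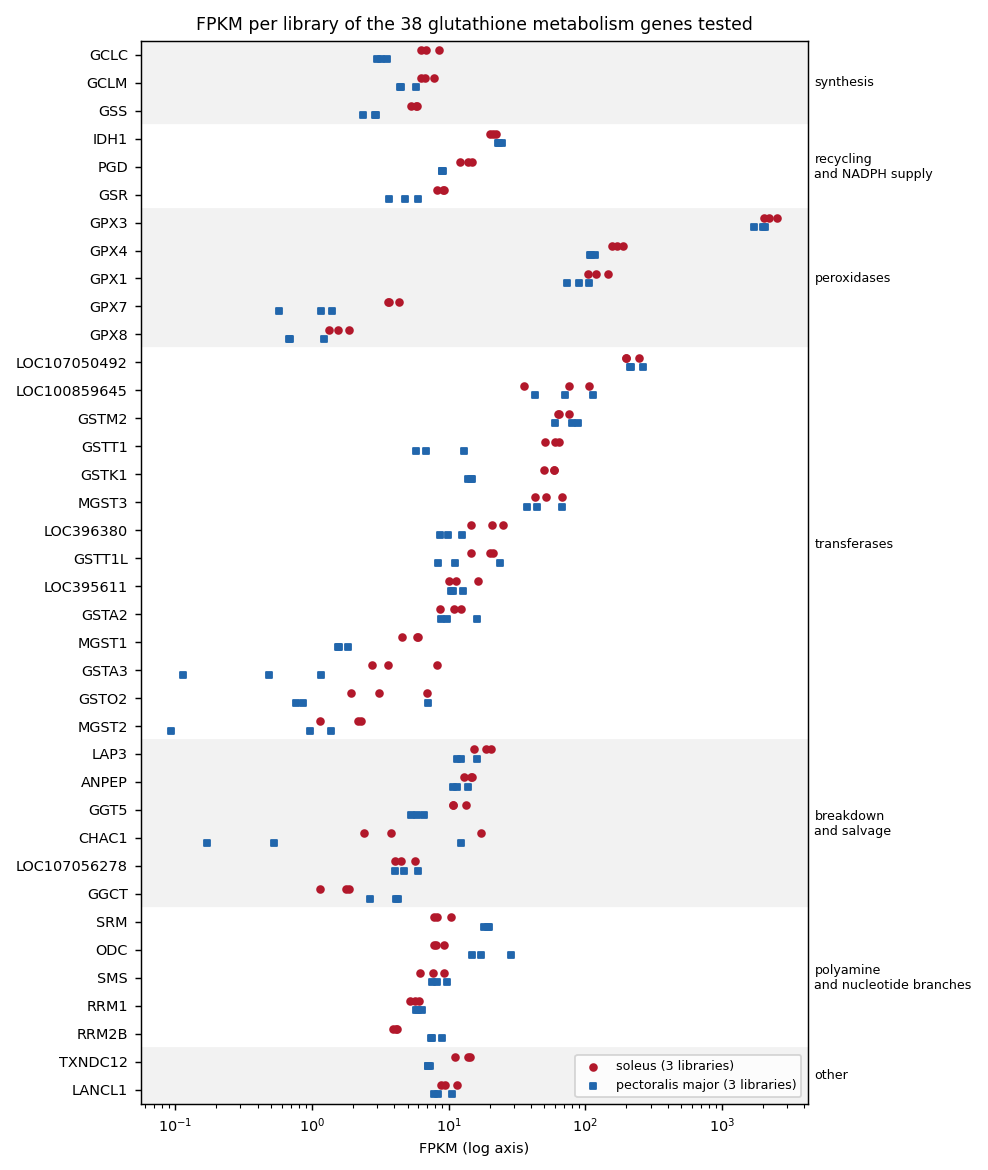
FPKM on a log axis of the 38 genes tested, grouped by role; each point is a library, with 3 soleus libraries (circles) above 3 pectoralis major libraries (squares). GPX3 lies highest in both muscles, and GSTT1 and GSTK1 are the abundant genes whose groups stand farthest apart.

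The enzymes that build glutathione were higher in soleus. GCLC (gene number 421894), the catalytic subunit of glutamate-cysteine ligase and the rate-limiting step, had 6.81, 6.32 and 8.57 FPKM in soleus and 2.99, 3.52 and 3.19 FPKM in pectoralis major, in the order of libraries 1 to 3 as throughout. The lowest soleus library lay above the highest pectoralis major library (log2 difference 0.95 ± 0.14 SE by limma, adjusted p = 0.000873). GSS (428135), glutathione synthetase, had 5.82, 5.32 and 5.85 FPKM in soleus and 2.93, 2.37 and 2.88 FPKM in pectoralis major, again without overlap (0.84 ± 0.13 SE, adjusted p = 0.000842). GCLM (424492), the modifier subunit that makes the ligase more active, differed less, with 6.30, 6.76 and 7.76 FPKM in soleus and 4.403, 5.77 and 4.46 FPKM in pectoralis major (0.44 ± 0.15 SE, adjusted p = 0.0305). Its call did not hold after median-ratio scaling (log2 difference 0.11, adjusted p = 0.559) or quantile normalization (0.248), with no filter on low values (0.0512), or when soleus library 2 (0.0671), soleus library 3 (0.114), pectoralis major library 1 (0.0794) or pectoralis major library 3 (0.0851) was left out. Within a library, which no scaling changes, the ratio of GCLC to GCLM was 0.935 to 1.10 in soleus and 0.610 to 0.716 in pectoralis major, so the 2 subunits changed unequally.

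Of the genes that return oxidised glutathione to its reduced form or supply NADPH, GSR and PGD rose. GSR (771783), glutathione reductase, had 9.17, 8.195 and 9.15 FPKM in soleus and 3.69, 4.77 and 6.01 FPKM in pectoralis major, with no overlap (log2 difference 0.77 ± 0.17 SE by limma, adjusted p = 0.00437). PGD (419450), an NADPH-forming enzyme of the pentose phosphate pathway, averaged 13.6 ± 1.37 FPKM in soleus and 9.02 ± 0.0923 FPKM in pectoralis major (SD, n = 3 each), and its call did not hold after median-ratio scaling (adjusted p = 0.224). IDH1 (424112), the cytosolic NADP-dependent isocitrate dehydrogenase, had 20.2 to 22.1 FPKM in soleus and 23.1 to 24.7 FPKM in pectoralis major. Its groups did not overlap, but it did not pass as deposited (log2 difference -0.15, adjusted p = 0.273); after median-ratio scaling it was called lower in soleus (-0.53, adjusted p = 0.00488).

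The peroxidases made up most of the pathway's transcript level. GPX3 (427638), the secreted plasma peroxidase, had 2022, 2543 and 2212 FPKM in soleus and 2001, 1704 and 2074 FPKM in pectoralis major. It thus held 67.5 ± 0.695% of the summed FPKM of the 47 genes in soleus and 68.4 ± 3.90% in pectoralis major (SD, n = 3 each), the groups overlapped, and it did not pass (log2 difference 0.23, adjusted p = 0.177), though it passed once mitochondrially encoded genes were removed from the totals (0.0163). GPX4 (374056), which reduces lipid peroxides in membranes, ranked 3 in level in both muscles. It had 156, 187 and 170.0 FPKM in soleus and 109, 117 and 109.9 FPKM in pectoralis major and rose (log2 difference 0.60 ± 0.12 SE by limma, adjusted p = 0.00306), a call that did not hold after median-ratio scaling (adjusted p = 0.205). GPX1 (100857115), the cytosolic peroxidase, had 105, 147 and 119 FPKM in soleus and 73.4, 107 and 89.6 FPKM in pectoralis major. The groups overlapped through soleus library 1 and pectoralis major library 2, and GPX1 did not pass (0.46, limma adjusted p = 0.0547). It passed with the replicate block, a fit that pairs libraries of the same number (0.00557), with mitochondrial genes removed from the totals (0.00798), after quantile normalization (0.0330), without soleus library 1 (0.0467) and without pectoralis major library 2 (0.0262). In 10 of the 15 alternatives GPX1 did not pass, among them median-ratio scaling (log2 difference 0.07, adjusted p = 0.765). Library 1 was the lowest of both muscles for GPX1, and also for the summed haemoglobin genes HBA1, HBAD, HBBA and HBZ, with 424, 941 and 1032 FPKM in soleus and 403, 810 and 638 FPKM in pectoralis major; the part of red cells in the GPX1 values was not tested.

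GPX7 and GPX8, peroxidases of the endoplasmic reticulum, were low in level and higher in soleus. GPX7 (424643) had 3.57, 3.66 and 4.34 FPKM in soleus and 0.570, 1.39 and 1.16 FPKM in pectoralis major, and rose by the largest step of the peroxidases (log2 difference 1.27 ± 0.17 SE by limma, adjusted p = 0.000489). GPX8 (426170) averaged 1.58 ± 0.262 FPKM in soleus and 0.864 ± 0.311 FPKM in pectoralis major (SD, n = 3 each; log2 difference 0.48, adjusted p = 0.0217). The call of GPX8 did not hold in 9 of the 14 alternatives that tested it, with adjusted p of 0.0709 and 0.0519 when soleus library 1 or 3 was left out, and of 0.0664 and 0.0690 when pectoralis major library 1 or 2 was. GPX2, a peroxidase of the gut lining, had 1 fragment in soleus library 2, 4 fragments in pectoralis major library 3 and none in the other libraries. TXNDC12 (772208), a thiol-disulphide enzyme also of the endoplasmic reticulum, had 13.8, 14.2 and 11.05 FPKM in soleus and 7.04, 7.02 and 7.33 FPKM in pectoralis major and rose without overlap (0.78 ± 0.13 SE, adjusted p = 0.00169).

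**Figure D2:**
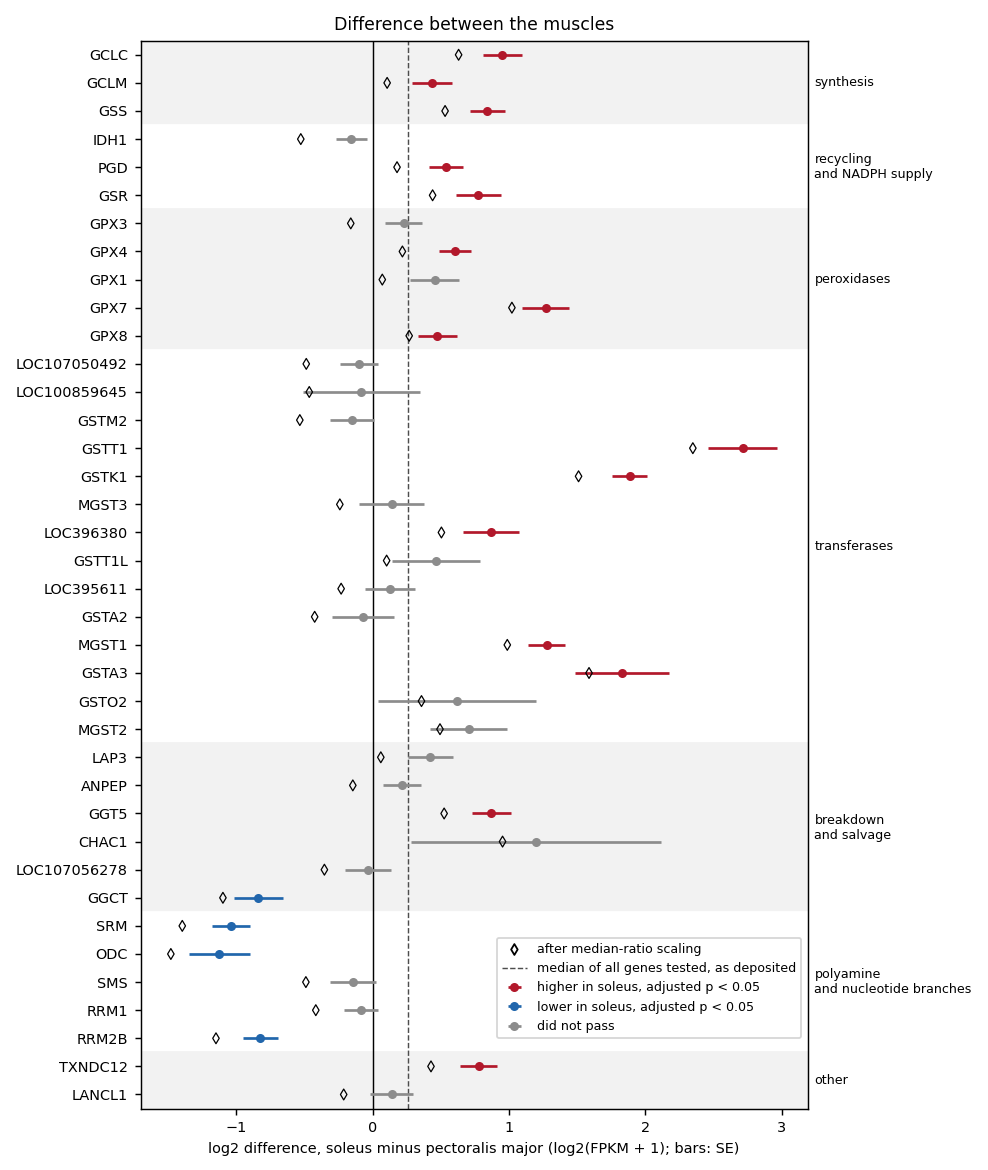
Soleus minus pectoralis major difference of log2(FPKM + 1) with its SE for the 38 genes tested; diamonds give the difference after median-ratio scaling and the dashed line the median of all genes as deposited (0.26). As deposited GSTT1 and GSTK1 lie farthest right; under both scalings the synthesis genes lie right of 0 and ODC, SRM, RRM2B and GGCT left of it.

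Among the transferases, a few genes differed strongly while the most abundant did not pass. GSTT1 (396322), a theta-class transferase, had 60.4, 64.6 and 50.5 FPKM in soleus and 6.81, 5.73 and 13.0 FPKM in pectoralis major. Every soleus library lay far above every pectoralis major library, and on the log2(FPKM + 1) scale this was the largest difference among the 38 genes tested (log2 difference 2.71 ± 0.26 SE by limma, adjusted p = 7.89e-05). GSTK1 (418302), the kappa-class transferase of mitochondria and peroxisomes, had 49.6, 59.5 and 59.1 FPKM in soleus and 14.5, 14.9 and 13.8 FPKM in pectoralis major (1.88 ± 0.13 SE, adjusted p = 1.18e-05). MGST1 (418178), a microsomal transferase that also reduces lipid peroxides, had 4.55, 5.95 and 5.83 FPKM in soleus and 1.83, 1.57 and 1.55 FPKM in pectoralis major (1.28 ± 0.14 SE, adjusted p = 0.000154). GSTA3 (414896), of the alpha class, was variable, with 8.21, 3.63 and 2.77 FPKM in soleus and 1.17, 0.485 and 0.114 FPKM in pectoralis major. Even so its groups did not overlap (1.83 ± 0.34 SE, adjusted p = 0.00242). With a pseudocount of 0.1 the log2 difference was 3.04 for GSTA3 and 2.85 for GSTT1, so the order of these genes depends on the pseudocount.

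The gene LOC107050492, annotated in the files with glutathione transferase activity, was the most abundant transferase, with 198, 247 and 199.9 FPKM in soleus and 263, 214 and 214 FPKM in pectoralis major. It did not pass as deposited (log2 difference -0.10, adjusted p = 0.57), nor did its neighbour GSTM2, a mu-class transferase, with 67.8 ± 7.45 FPKM in soleus and 76.0 ± 14.2 FPKM in pectoralis major (-0.15, adjusted p = 0.453). After median-ratio scaling both were called lower in soleus (adjusted p = 0.0452 for LOC107050492 and 0.0352 for GSTM2). LOC100859645, an alpha-cluster gene, varied widely within each muscle, with 35.7, 76.2 and 107 FPKM in soleus and 42.6, 114 and 71.4 FPKM in pectoralis major. MGST3, a membrane transferase and peroxidase, had 42.7, 67.7 and 51.7 FPKM in soleus and 44.0, 67.0 and 37.5 FPKM in pectoralis major. Neither LOC100859645 (-0.08, adjusted p = 0.88) nor MGST3 (0.14, adjusted p = 0.63) passed, and the spread between libraries of a muscle was larger than the difference between muscles.

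Summed over the 16 transferase genes, the level was 538, 657 and 617 FPKM in soleus and 493, 539 and 494 FPKM in pectoralis major. GSTT1 made up 9.75 ± 1.53% of that sum in soleus and 1.69 ± 0.828% in pectoralis major, and GSTK1 9.28 ± 0.270% in soleus and 2.83 ± 0.0983% in pectoralis major (SD, n = 3 each). Without GSTT1 and GSTK1, a choice made after their values were seen, the sums averaged 489.4 FPKM in soleus and 486.0 FPKM in pectoralis major. By level among the 47 genes, GSTT1 was in place 7 in soleus and place 21 in pectoralis major, while LOC107050492 held place 2 in both muscles and GPX1 place 4 in both.

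**Figure D3:**
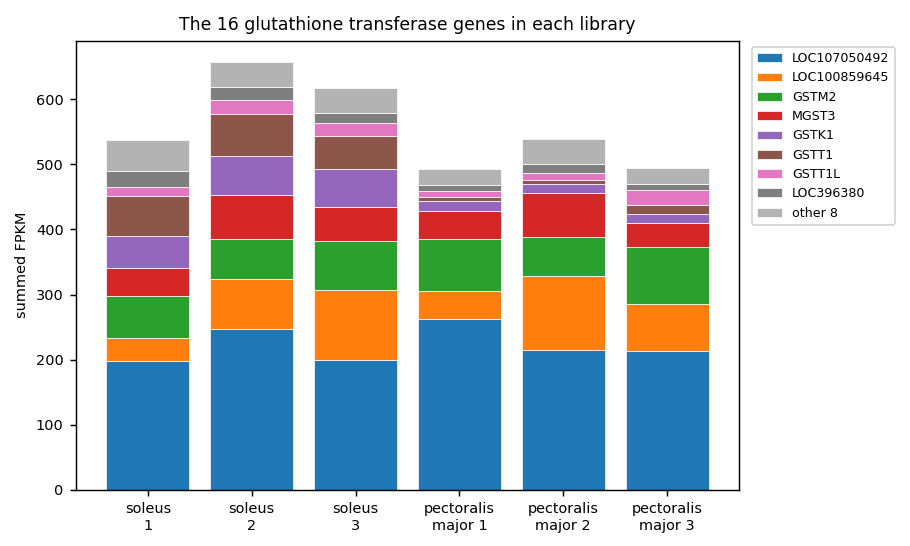
Summed FPKM of the 16 transferase genes in each library, 3 of soleus on the left and 3 of pectoralis major on the right, with the 8 most abundant genes in colour. LOC107050492 is the largest part of every bar, and the GSTT1 and GSTK1 parts are taller in every soleus library than in any pectoralis major library.

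Some neighbouring genes differed in how the muscles compared, and others did not. In the RefSeq gene table of assembly GRCg7b, GSTT1L and GSTT1 are next to each other, yet GSTT1L (769847) had 14.6, 21.3 and 20.2 FPKM in soleus and 8.33, 11.2 and 23.7 FPKM in pectoralis major and did not pass (log2 difference 0.47, adjusted p = 0.247). It passed only when pectoralis major library 3 was left out (0.87, adjusted p = 0.0107). The ratio of GSTT1 to GSTT1L was 2.50 to 4.14 in soleus and 0.512 to 0.817 in pectoralis major. For the adjacent pair GSTM2 and LOC107050492 the ratio overlapped, with 0.320 ± 0.0642 in soleus and 0.332 ± 0.0707 in pectoralis major (SD, n = 3 each). Of the alpha cluster, in which LOC396380, GSTA4, GSTA3, LOC100859645, LOC395611 and GSTA2 follow each other in that table, LOC396380 rose beside GSTA3, with 24.8, 20.7 and 14.5 FPKM in soleus and 9.96, 12.5 and 8.67 FPKM in pectoralis major (0.87 ± 0.21 SE, adjusted p = 0.00746; 0.0637 after median-ratio scaling). GSTA2 had 10.9, 8.715 and 12.3 FPKM in soleus and 8.74, 16.2 and 9.65 FPKM in pectoralis major, and LOC395611 had 16.5, 10.1 and 11.3 FPKM in soleus and 10.5, 12.7 and 10.7 FPKM in pectoralis major. Both overlapped between the muscles and did not pass. These genes are related copies, the annotated spans of LOC100859645 and LOC395611 overlap, and whether strand was used in counting is not given in the sources used here, so fragments may be misassigned among them.

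Of the remaining transferases, MGST2 had 2.28, 1.15 and 2.16 FPKM in soleus and 1.38, 0.0928 and 0.974 FPKM in pectoralis major, where library 2 held 2 fragments. It passed with the replicate block (log2 difference 0.71, adjusted p = 0.00135) and with mitochondrially encoded genes left out (0.0301). It also passed without soleus library 2 (0.0396), pectoralis major library 1 (0.0246) or library 2 of both muscles (0.0315). As deposited, with all 6 libraries and no block, MGST2 did not pass (0.0601), nor did it after median-ratio scaling (0.211). Library 2 was its lowest in both muscles, and the fit without both was added after the data were seen. HPGDS, which in mammals makes prostaglandin D in haematopoietic cells, stayed under the filter, with 1.46, 0.783 and 1.52 FPKM in soleus and 0.326, 0.346 and 0.372 FPKM in pectoralis major, and passed when no filter was used (adjusted p = 0.0145). GSTA4 had 0.215 to 0.517 FPKM in soleus and 0.05998 to 0.864 FPKM in pectoralis major.

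Of the genes that break glutathione down or salvage its parts, GGT5 rose and GGCT fell. GGT5 (416943), a gamma-glutamyltransferase of the cell surface that also acts on leukotrienes, had 10.8, 10.7 and 13.5 FPKM in soleus and 5.33, 5.83 and 6.62 FPKM in pectoralis major (log2 difference 0.87 ± 0.14 SE by limma, adjusted p = 0.0013). Markers of several other cell types, but not of all those listed, moved with it. All 7 endothelial genes and all 7 leukocyte genes tested rose, where 40.0% of all genes tested rose. The summed FPKM of the endothelial and leukocyte genes was 165 to 203 and 993 to 1100 in soleus, against 84.1 to 95.6 and 512 to 653 in pectoralis major. Most of the leukocyte sum was CD74, with 880 to 985 FPKM in soleus and 474 to 589 FPKM in pectoralis major. All 5 adipocyte genes also rose, with a sum of 336 to 417 FPKM in soleus and 87.9 to 92.1 FPKM in pectoralis major. All 4 smooth muscle and pericyte genes rose too, with a sum of 262 to 396 FPKM in soleus and 138 to 208 FPKM in pectoralis major, as did all 3 Schwann cell genes, with 35.1 to 52.6 FPKM in soleus and 21.2 to 25.4 FPKM in pectoralis major. After median-ratio scaling 5 endothelial, 6 leukocyte, 5 adipocyte, 3 smooth muscle and 2 Schwann cell genes rose, where 20.6% of all genes tested rose. The adipocyte gene CIDEC and the Schwann cell gene SOX10 entered the test through soleus, so the filter favoured their direction. Fibroblast genes were mixed, as 2 of 5 rose as deposited and 0 after median-ratio scaling. The fibroblast sum was 208 to 316 FPKM in soleus and 173 to 308 FPKM in pectoralis major. Of the 3 haemoglobin genes tested, none passed as deposited. HBZ, the haemoglobin gene not tested, had 1 fragment in soleus library 3 and none in the other libraries. Apart from HBZ, none of these markers of other cell types was at 0 in any library. The part of these cell types in GGT5, HPGDS or any other gene here was not tested. More cells of a type cannot be told apart from more RNA per cell in bulk tissue. GGCT (420676), a gamma-glutamyl cyclotransferase of the cytosol, had 1.15, 1.88 and 1.78 FPKM in soleus and 2.66, 4.24 and 4.11 FPKM in pectoralis major, without overlap (-0.84 ± 0.18 SE, adjusted p = 0.0048).

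The peptidases that split cysteinylglycine did not pass as deposited. LAP3, leucine aminopeptidase, had 15.2, 18.8 and 20.4 FPKM in soleus and 11.4, 16.03 and 12.4 FPKM in pectoralis major, and did not pass (log2 difference 0.42, adjusted p = 0.0552). It passed with the replicate block (0.0208), with mitochondrially encoded genes left out (0.00972), without soleus library 1 (0.0402) and without pectoralis major library 2 (0.0211). In 11 of the 15 alternatives LAP3 did not pass, among them median-ratio scaling (log2 difference 0.06, adjusted p = 0.788). ANPEP, aminopeptidase N of the cell surface, had 12.9 to 14.9 FPKM in soleus and 10.7 to 13.9 FPKM in pectoralis major (0.22, adjusted p = 0.213), and passed once mitochondrially encoded genes were removed from the totals (0.43, adjusted p = 0.0207). LOC107056278, a neighbour of the acetyltransferase gene NAT8, had 4.08 to 5.69 FPKM in soleus and 4.04 to 6.01 FPKM in pectoralis major. CHAC2, a cyclotransferase that acts on glutathione itself, was under the filter with 0.784 to 1.09 FPKM in soleus and 0.363 to 0.631 FPKM in pectoralis major, and passed when no filter was used (adjusted p = 0.0357). GGT2, GGT7, NAT8 and NAT8B stayed below 1 FPKM in every library, and NAT8B had 1 fragment in 1 library of each muscle.

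CHAC1 (423209), the other cyclotransferase that degrades glutathione and a gene of the amino acid and protein folding stress response, was highest in library 2 of both muscles. It had 2.38, 17.1 and 3.75 FPKM in soleus and 0.527, 12.4 and 0.172 FPKM in pectoralis major, so library 2 lay far above the others and the muscles overlapped. It did not pass (log2 difference 1.20, limma adjusted p = 0.288). The block gave a call (adjusted p = 0.00194), as did fits without pectoralis major library 2 (2.31, adjusted p = 0.0153) and without library 2 of both muscles (1.58, adjusted p = 0.00319). GSTO2, an omega-class transferase, was also highest in library 2 of both muscles, with 3.08, 6.99 and 1.92 FPKM in soleus and 0.759, 7.08 and 0.854 FPKM in pectoralis major. It passed with the block (0.62, adjusted p = 0.0238), without pectoralis major library 2 (1.34, adjusted p = 0.0172) and without library 2 of both muscles (0.93, adjusted p = 0.0120), but not otherwise (0.386 with all libraries). The fit without library 2 of both muscles was added after the data were seen. Leaving out the libraries in which CHAC1 and GSTO2 were highest lowers their spread within a muscle. A smaller p-value was thus nearly fixed in advance, and no conclusion is drawn from it. All 9616 genes were ranked by the smaller of the 2 excesses of library 2 over the mean of libraries 1 and 3 of its muscle, on the log2(FPKM + 1) scale. CHAC1 ranked 1 and GSTO2 8, and MGST3 (86) and GPX1 (210) were next among the pathway's genes.

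**Figure D4:**
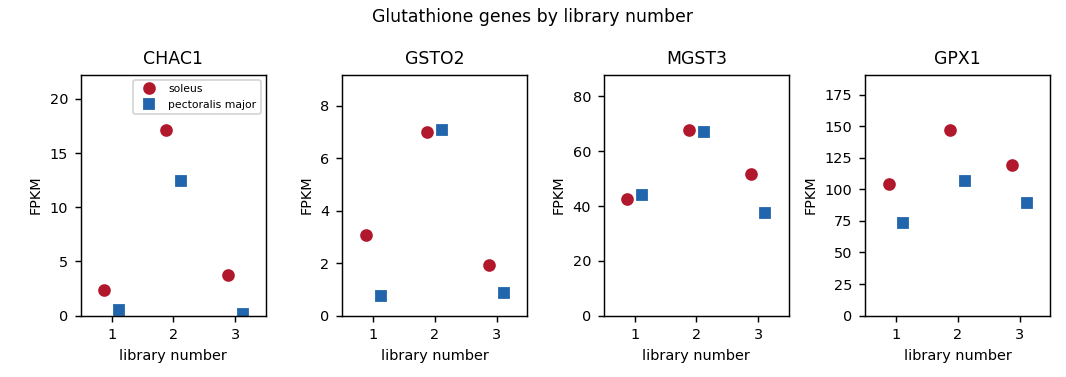
FPKM of CHAC1, GSTO2, MGST3 and GPX1 by library number, soleus as circles and pectoralis major as squares. Library 2 is the highest of its muscle for all 4 genes, with 17.1 FPKM in soleus and 12.4 FPKM in pectoralis major for CHAC1.

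Of the 5 polyamine and nucleotide branch genes tested, ODC, SRM and RRM2B fell in soleus and none rose. ODC (421937), ornithine decarboxylase and the first step of polyamine synthesis, had 9.26, 8.09 and 7.79 FPKM in soleus and 14.9, 28.5 and 17.1 FPKM in pectoralis major. All soleus libraries were below all pectoralis major libraries, of which library 2 was the highest (log2 difference -1.12 ± 0.22 SE by limma, adjusted p = 0.00303). SRM (771447), spermidine synthase, had 8.27, 7.88 and 10.4 FPKM in soleus and 18.2, 19.5 and 19.7 FPKM in pectoralis major (-1.04 ± 0.14 SE, adjusted p = 0.000445). SMS, spermine synthase, the next step, had 9.19, 7.71 and 6.12 FPKM in soleus and 8.22, 9.77 and 7.59 FPKM in pectoralis major and did not pass as deposited (-0.14, adjusted p = 0.481). The ratio of SRM to SMS was 0.900 to 1.70 in soleus and 2.00 to 2.59 in pectoralis major, so the 2 synthases changed unequally.

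Ribonucleotide reductase, which makes deoxynucleotides, showed a like split among its subunits. RRM2B (420253), the small subunit used by resting cells, had 4.09, 3.885 and 4.22 FPKM in soleus and 8.95, 7.37 and 7.61 FPKM in pectoralis major and fell in soleus (log2 difference -0.82 ± 0.13 SE by limma, adjusted p = 0.00099). RRM1, the large subunit, had 5.22 to 6.07 FPKM in soleus and 5.78 to 6.38 FPKM in pectoralis major (-0.09, adjusted p = 0.572). RRM2, the small subunit of dividing cells, had 0.358 to 0.882 FPKM in soleus and 0.175 to 0.853 FPKM in pectoralis major, under the filter. The ratio of RRM2B to RRM1 was 0.674 to 0.748 in soleus and 1.19 to 1.499 in pectoralis major. After median-ratio scaling SMS (-0.49, adjusted p = 0.0282) and RRM1 (-0.42, adjusted p = 0.0139) were called lower in soleus too, so all 5 genes tested here were then lower; RRM1 was also called lower after quantile normalization (-0.31, adjusted p = 0.0443). LANCL1, a glutathione-binding protein, had 8.82 to 11.5 FPKM in soleus and 7.84 to 10.7 FPKM in pectoralis major and did not pass (0.14, adjusted p = 0.47).

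**Figure D5:**
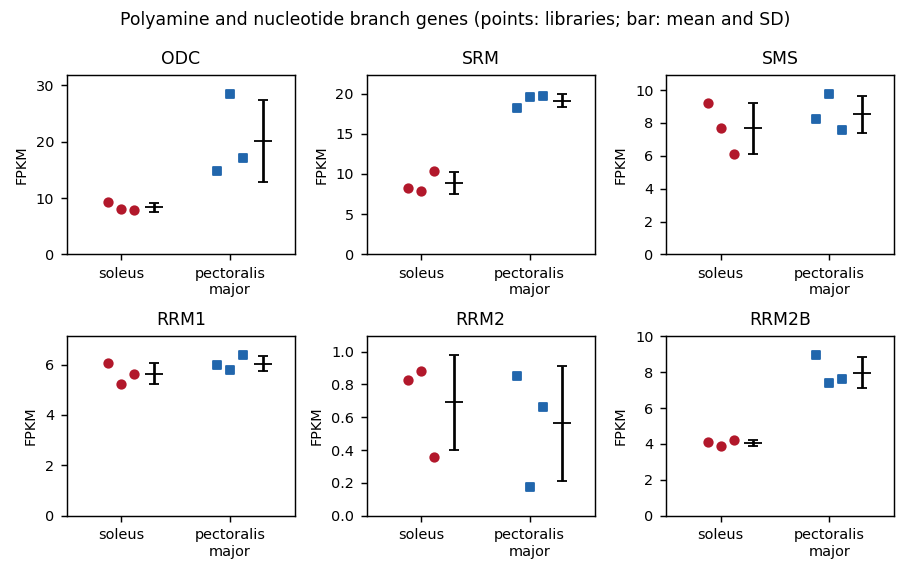
FPKM of the 6 polyamine and nucleotide branch genes, soleus on the left and pectoralis major on the right of each panel, with each library as a point and the mean and SD beside it (n = 3). ODC, SRM and RRM2B are lower in every soleus library than in any pectoralis major library, and SMS, RRM1 and RRM2 overlap.

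Across all 15 alternatives, 14 of the 19 genes called kept their call and direction in every one that tested them. The matching share among all genes called was not computed, and every alternative drew on the same 6 libraries. The count is therefore not read as a trait of the pathway. Those higher in soleus were GCLC, GSS, GSR, GPX7, GSTA3, GSTK1, GSTT1, MGST1, GGT5 and TXNDC12, and those lower were GGCT, ODC, SRM and RRM2B. Of the higher genes, GPX7 and GSTA3 had entered the test through soleus. The calls of GCLM, PGD, GPX4, GPX8 and LOC396380 did not hold after median-ratio scaling. With the replicate block 20 genes rose and 4 fell, where 43.8% of all genes rose and 19.5% fell; the 5 added were GPX1, GSTO2, MGST2, CHAC1 and LAP3.

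Genes around the pathway, from 7 lists of 73 symbols, were set beside it. Of the 61 found under those symbols, 53 were tested, 24 rose and 12 fell, beside the same backgrounds of 40.0% and 17.4%. After median-ratio scaling 12 rose and 17 fell, beside 20.6% and 30.1%. For CDO1, H6PD, SLC25A10 and ABCC4, all called higher as deposited, fewer than 3 pectoralis major libraries reached the minimum. These genes entered the test through soleus, so the filter favoured their direction. Of 6 sensors tested, 3 rose and 0 fell as deposited, and 2 rose and 3 fell after median-ratio scaling. BACH1, a repressor of antioxidant genes (1.03), and MAFF (1.03) rose under both, and MAFK rose just as deposited. NFE2L2, MAFG and NFE2L1 did not pass as deposited and were the 3 that fell after scaling. NFE2L2, the main activator of glutathione genes, had 6.99, 5.98 and 6.26 FPKM in soleus and 8.18, 9.42 and 6.31 FPKM in pectoralis major. Its log2 difference as deposited was -0.26 (limma adjusted p = 0.184). Quantile normalization called NFE2L2 lower in soleus (-0.45, adjusted p = 0.0349), as did median-ratio scaling (-0.60, adjusted p = 0.0138). Whether the sensors act on the pathway's genes here was not tested. Of 12 thioredoxin and glutaredoxin genes 3 rose and 3 fell as deposited, and 1 rose and 3 fell after median-ratio scaling. SRXN1, sulfiredoxin, which repairs peroxiredoxins, had 10.9, 14.2 and 20.8 FPKM in soleus and 2.35, 2.54 and 3.12 FPKM in pectoralis major (2.11, adjusted p = 0.000122), and GLRX2, the mitochondrial glutaredoxin, fell (-1.04). Of 3 quinone and haem genes tested, 2 rose as deposited and 1 after median-ratio scaling. HMOX1, haem oxygenase, rose (1.302), and NQO1 did not pass in either. Of 8 selenoprotein genes tested, 5 rose and 1 fell as deposited, and 0 rose and 1 fell after median-ratio scaling.

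Of 4 genes tested on the cystine and cysteine list, CTH and MAT2B fell and CDO1 rose, as deposited and after median-ratio scaling. AHCY did not pass in either. CTH, which makes cysteine from cystathionine, had 9.13 ± 1.85 FPKM in soleus and 19.3 ± 2.54 FPKM in pectoralis major (SD, n = 3 each; log2 difference -1.01, limma adjusted p = 0.00155), and CDO1, which oxidises cysteine, rose (1.13). Of 13 genes tested on the list of the pentose phosphate pathway, NADP kinases and other NADPH supply, 7 rose and 3 fell as deposited. After median-ratio scaling 4 of them rose and 5 fell, beside the backgrounds given above for each scaling. NNT, the mitochondrial transhydrogenase, rose (2.02), as did the mitochondrial folate enzyme ALDH1L2 (1.17), while malic enzyme ME1 (-2.07), the folate enzyme MTHFD2 (-1.45) and the pentose phosphate enzyme RPIA (-1.36) fell. Of 7 genes tested on the list of glutathione transport and glyoxalase, 3 rose and 3 fell, both as deposited and after median-ratio scaling. GLO1, glyoxalase 1, which uses glutathione to clear methylglyoxal, a by-product of glycolysis, had 134, 154 and 128 FPKM in soleus and 449, 587 and 474 FPKM in pectoralis major (-1.85, adjusted p = 2.68e-05). The 13 genes named by their differences here are those of the lists that passed with a difference of at least 1. Their calls and directions held in every alternative that tested them, and the matching share among all genes was not computed.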

How the data were processed

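Reads were handled with build GRCg6a and the tools HISAT2, Cufflinks, HTSeq and R 3.2.0, per the submitters' processing notes; the RNA was extracted with TRIzol, per the labels. The authors deposited FPKM for all 6 libraries in 1 table. The steps of these values gave whole fragments for 94896 of 94897 values above 0 (relative tolerance 1e-06), and hence the library totals; intervals for counting error were not computed. In the table, 10 symbols that read as dates were restored by gene number.

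The test was limma 3.58.1 in R 4.3.3 (two-sided, trended variance); values entered as log2(FPKM + 1), and a gene needed FPKM of at least 1 in at least 3 libraries, with Benjamini-Hochberg adjustment over 9616 genes and a threshold of 0.05. The code was tested on simulated data. Tables and figures were made with Python 3.11.15. The genes, their roles and the related and marker lists were chosen with earlier results of these data known. Genes named in full are, per role, those called with a log2 difference of at least 1, the largest difference in each direction, the highest mean FPKM, and any whose call or direction an alternative changed; of related genes, those called with a difference of at least 1, and NFE2L2.

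Deviations from the muscle means correlated between soleus and pectoralis major libraries of the same number (r = 0.40, 0.45 and 0.37 over genes). Between different numbers r was -0.30 to -0.13. Deviations of a muscle cancel out over its libraries, so the negative r is partly built in. The replicate block, used as an alternative, pairs the samples by number, and the main fit does not. The labels do not say what a number stands for. In all, 14 alternatives changed the pseudocount, the filter, the scaling, the model or the libraries; 1 more, without library 2 of both muscles, was added after seeing the data.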

Additional observations from a re-analysis of the deposited data

How the results depend on the processing

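With median-ratio scaling 10 of the 38 genes tested rose and 9 fell, where 20.6% of all genes rose and 30.1% fell. Of the related genes 12 rose and 17 fell. The median log2 difference of the pathway's genes tested was 0.087. That median was 0.23 with no filter, 0.23 with a mean FPKM of at least 5, 0.64 with mitochondrially encoded genes left out, 0.28 with quantile normalization and 0.29 to 0.49 when 1 library was left out. The median of all genes moved too, to 0.056, 0.088, 0.45, 0.012 and 0.22 to 0.28 in the same order. The pathway's median minus that of all genes was 0.19 in the main fit. It was 0.14 with median-ratio scaling, then 0.17, 0.14, 0.19, 0.27 and 0.065 to 0.25 in that order. With a mean FPKM of at least 5, 29 of the 47 genes were tested and 13 were called, 10 higher and 3 lower. Of all 5099 genes tested there, 1639 were higher and 1321 lower. Related genes called were 24 against 36, of which 12 rose. With quantile normalization 14 of the genes tested rose and 5 fell, and 15 related genes rose, where 2244 of all 9616 genes rose and 2285 fell. Leaving out 1 library gave 17 to 22 genes called, 13 to 18 higher and 4 lower, and 33 to 35 related genes called, 21 to 23 higher and 11 to 12 lower. Of all 9616 genes, 3157 to 3597 were then higher and 1311 to 1678 lower. With the replicate block 24 genes were called, 20 higher and 4 lower, and beside the 5 named it changed no call among the 47. Differences that turned sign were all of genes not called. With median-ratio scaling these were LOC395611 (-0.23), LANCL1 (-0.21), MGST3 (-0.24), ANPEP (-0.14) and GPX3 (-0.16). With mitochondrially encoded genes left out they were GSTM2 (0.071), IDH1 (0.060), SMS (0.056), LOC107050492 (0.12), RRM1 (0.11), LOC100859645 (0.14), GSTA2 (0.14) and LOC107056278 (0.16). Without library 2 of both muscles they were LOC100859645 (0.16), GSTA2 (0.31) and LOC107056278 (0.029). When 1 library was left out, differences ran from -0.23 to 0.18 for GSTA2, -0.44 to 0.36 for LOC100859645, -0.15 to 0.095 for LOC107056278, -0.033 to 0.38 for MGST3 and -0.065 to 0.26 for LOC395611. Causes beyond each setting's own construction were not tested. Depth limits the low genes: 5 of the 38 tested had under 50 fragments in a library.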

Other observations

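The genes that stood beside CHAC1 and GSTO2 in the ranking by library 2 were named after their values were seen. EXFABP, an extracellular fatty acid-binding protein that rises in the chicken acute phase response, ranked 2 of 9616 genes. It had 12.01, 79.5 and 14.1 FPKM in soleus and 5.25, 19.6 and 4.76 FPKM in pectoralis major. SAA, serum amyloid A, an acute phase protein, ranked 3, with 2.33, 11.04 and 3.03 FPKM in soleus and 2.42, 8.08 and 1.54 FPKM in pectoralis major. S100A12, a calcium-binding protein of granulocytes, ranked 4, with 2.50, 8.37 and 1.10 FPKM in soleus and 1.043, 6.17 and 1.72 FPKM in pectoralis major. Library 2 was the highest of its muscle for all 3. Places 5 to 7 were held by LOC107048987, LOC107053729 and TEX30. Places 9 to 12 were held by LOC121111297, LOC121107822, OTOS and LOC121107614. What sets library 2 apart was not tested.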
